A study of Rattus norvegicus with 24 samples.

Results

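Ubiquitin conjugation and removal genes were followed in RBEC4 cells, a rat brain microvascular endothelial line that stands in for the blood-brain barrier in culture, after exposure to silver nanoparticles. The members were every probe whose platform gene symbol begins with the name of an activating (Uba), conjugating (Ube2) or ligating family (Ube3, Ube4, Cul, Rbx, Fbxl, Fbxo, Fbxw, Rnf, Trim), a deubiquitinase family (Usp, Otub, Otud) or the Zfand family of ubiquitin-binding zinc finger proteins. The Illumina rat array held 224 such probes, for 217 genes, among its 22523 probes. Of these, 54 probes, each for a different gene, were detected above the negative controls (detection p under 0.01) on at least 4 of the 24 arrays, as were 2774 probes of the whole array (12.3%). Particles were given at 1 ppm for 18 h to cells that were 95% confluent. The groups were PVP10 (10 nm particles coated with polyvinylpyrrolidone, 5 arrays), PVP75 (75 nm, the same coating, 5 arrays), citrate10 (10 nm, citrate coating, 5 arrays), citrate75 (75 nm, citrate coating, 5 arrays) and control (no particles, 4 arrays). No soluble silver salt and no free coating agent is among these groups. The labels number the arrays of a group without telling if each had a culture of its own, so a p-value here reflects no more than the spread among these samples, and that spread may be technical.

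Ubiquitin is a small protein that is attached to other proteins in a relay. An activating enzyme (E1) charges it, a conjugating enzyme (E2) carries it, and a ligase (E3) selects the substrate, while deubiquitinases take it off again. Chains of ubiquitin send many proteins to the proteasome, and other linkages steer membrane traffic, signalling and DNA repair. In cells whose proteins are damaged by metals or oxidants this system clears misfolded proteins. Cullin-RING ligases, the largest ligase class, are built on a cullin scaffold with a RING subunit and an exchangeable substrate receptor, such as an F-box protein.

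The promoter windows of 4 members are printed because, among members detected on all 24 arrays, Zfand5 and Ube2g1 had the largest rises and Ube2e3 and Trim28 the largest falls in PVP10. They were chosen after their values were seen. Each window runs from 250 bases before to 50 bases after an annotated start, 5′ to 3′ on the gene's strand. The start is as RefSeq gives it for the rat build GRCr8. In Zfand5, Ube2g1 and Trim28 it lies inside the annotated span of the gene, and the matches hold for the printed window only. Zfand5 lies at chr1:228192515-228192814 on the plus strand, Ube2g1 at chr10:57724258-57724557 on the plus strand, Ube2e3 at chr3:84193996-84194295 on the plus strand and Trim28 at chr1:82724645-82724944 on the plus strand. Capitals mark matches, on either strand, to the searched motifs described after the sequences.
Zfand5: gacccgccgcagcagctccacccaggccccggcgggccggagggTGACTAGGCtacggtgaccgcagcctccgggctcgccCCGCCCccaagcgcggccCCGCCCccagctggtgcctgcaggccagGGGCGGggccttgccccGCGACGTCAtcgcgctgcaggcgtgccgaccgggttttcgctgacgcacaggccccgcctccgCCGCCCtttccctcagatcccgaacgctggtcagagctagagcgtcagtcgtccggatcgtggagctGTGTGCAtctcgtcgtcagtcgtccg
Ube2g1: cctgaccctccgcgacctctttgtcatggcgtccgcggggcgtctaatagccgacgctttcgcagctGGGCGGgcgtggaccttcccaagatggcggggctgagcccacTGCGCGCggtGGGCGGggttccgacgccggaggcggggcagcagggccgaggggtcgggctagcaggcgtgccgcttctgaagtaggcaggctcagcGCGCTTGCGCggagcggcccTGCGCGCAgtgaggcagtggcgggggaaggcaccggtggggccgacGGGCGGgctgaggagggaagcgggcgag
Ube2e3: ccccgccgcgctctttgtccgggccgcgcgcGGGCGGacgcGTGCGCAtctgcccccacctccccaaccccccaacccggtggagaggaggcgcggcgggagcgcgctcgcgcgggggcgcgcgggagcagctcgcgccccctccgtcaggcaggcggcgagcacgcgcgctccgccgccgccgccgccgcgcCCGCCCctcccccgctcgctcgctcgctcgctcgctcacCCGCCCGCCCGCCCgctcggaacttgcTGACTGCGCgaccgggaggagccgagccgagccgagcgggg
Trim28: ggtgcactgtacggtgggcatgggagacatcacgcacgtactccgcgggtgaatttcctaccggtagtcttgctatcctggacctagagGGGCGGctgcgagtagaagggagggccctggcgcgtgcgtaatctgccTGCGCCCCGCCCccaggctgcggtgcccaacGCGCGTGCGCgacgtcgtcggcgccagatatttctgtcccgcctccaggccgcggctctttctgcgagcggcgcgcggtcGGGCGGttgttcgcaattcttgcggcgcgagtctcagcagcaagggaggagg

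The motifs searched, on both strands and with overlaps counted, were the heat shock element (GAA, TTC and GAA in turn, with any 2 bases between them), the antioxidant response element TGACNNNGC, the metal response element in the forms TGCGCNC and TGCACNC, the amino acid response element TGATGNAAT, the cyclic AMP response element TGACGTCA, the NRF1 site (GCGC and TGCGC with any base between them), the CCAAT box CCAAT and the GC box GGGCGG. All 4 windows held the GC box, with 4 matches in Zfand5, 3 in Ube2g1, 5 in Ube2e3 and 3 in Trim28, and 34.9% of all 27457 windows of this length hold at least 1. The antioxidant motif, found in 12.2% of all windows, matched at 2 places in Zfand5 and at 1 in Ube2e3. The first metal form, found in 15% of all windows, matched at 3 places in Ube2g1, of which 2 overlap, and at 1 place each in Ube2e3 and Trim28. In Trim28 that match overlaps a GC box. The second metal form, found in 12.2% of all windows, matched once in Zfand5. The NRF1 motif, found in 4.71% of all windows, matched once each in Ube2g1 and Trim28. The windows were rich in G and C, at 73.3% in Zfand5, 73.7% in Ube2g1, 82.0% in Ube2e3 and 67% in Trim28, where the median of all windows was 52.3%. The shares over all windows were not matched for this base composition and count windows with at least 1 match, so they do not measure enrichment. A match is a description of these letters and not a site shown to be used. Windows were matched for 43 of the 54 measured members (79.6%), too few for a comparison of the whole set.

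On each array, 2128 to 2576 probes and 41 to 52 members were detected, and within groups the arrays correlated at Pearson's r between 0.981 and 0.996 across probes. The arrays lay on 2 chips, with 2 PVP10, 4 PVP75, 2 citrate10, 3 citrate75 and 1 control array on the first and 3, 1, 3, 2 and 3 on the second, so the chip was a term in every fit. Of 18 endothelial markers on the array only Tie1 and Tjp1 were measured, and the defining markers Cdh5, Vwf and Cldn5 did not pass the detection filter. Markers of pericytes, fibroblasts, astrocytes, microglia and oligodendrocytes were all below the filter, and 2 of 7 neuron markers passed it. In PVP10 against control, Tjp1 was lower by limma (log2 fold change -0.36, adjusted p = 0.0029), as was the neuron marker Gad2 (-0.39, adjusted p = 0.00717), while Tie1 (0.08, adjusted p = 0.588) and Rbfox3 (-0.06, adjusted p = 0.741) were not called. The summed normalized intensity of the endothelial pair was 762 to 1045 on PVP10 arrays, 1013 to 1238 on PVP75 arrays, 1143 to 1387 on citrate10 arrays, 1043 to 1259 on citrate75 arrays and 992 to 1181 on control arrays. That of the neuron pair was 50 to 59 on PVP10, 49 to 63 on PVP75, 51 to 73 on citrate10, 54 to 72 on citrate75 and 57 to 67 on control arrays. With sums this low both neuron probes lay close to the detection limit in every group, which limits what the lower Gad2 value can mean. Their part in the results on ubiquitin genes was not tested. In bulk RNA, fewer cells of a type and less RNA per cell cannot be told apart.

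Most members were not detected. Of the 224 probes, 159 were detected on 0 arrays, 11 on 1 to 3 arrays and 37 on all 24. None of the 4 activating enzyme probes on the array passed, which are Uba6, an enzyme that charges ubiquitin, and Uba2, Uba3 and Uba7, which serve the ubiquitin-like modifiers SUMO, NEDD8 and Isg15 in that order. The measured members comprised 13 of 28 conjugating enzyme probes, 1 of 4 Ube3 and Ube4 probes, 4 of 8 cullin and Rbx probes, 10 of 44 F-box probes, 10 of 47 RNF probes, 8 of 38 TRIM probes, 7 of 45 deubiquitinase probes and 1 of 6 Zfand probes. The naming rule also takes in Usp6nl, which is no deubiquitinase and was not measured. At the threshold itself, Trim25 was detected on 4 arrays with a median raw intensity of 98.5, and Fbxw8 on 5 arrays with 99.9. Just outside it, on 3 arrays each, were Cul2 (99.6), Fbxw11 (97), Usp3 (96.7) and Fbxl8 (94.7), the last on 3 citrate75 arrays. Of the 54, 47 were detected on at least 1 array of every group, while Ube2l3, Ube2s, Fbxw8, Trim25, Otud6b, Usp1 and Usp49 were not well above background on any array of at least 1 group. None of these 7 was called against control with any particle.

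**Figure D1:**
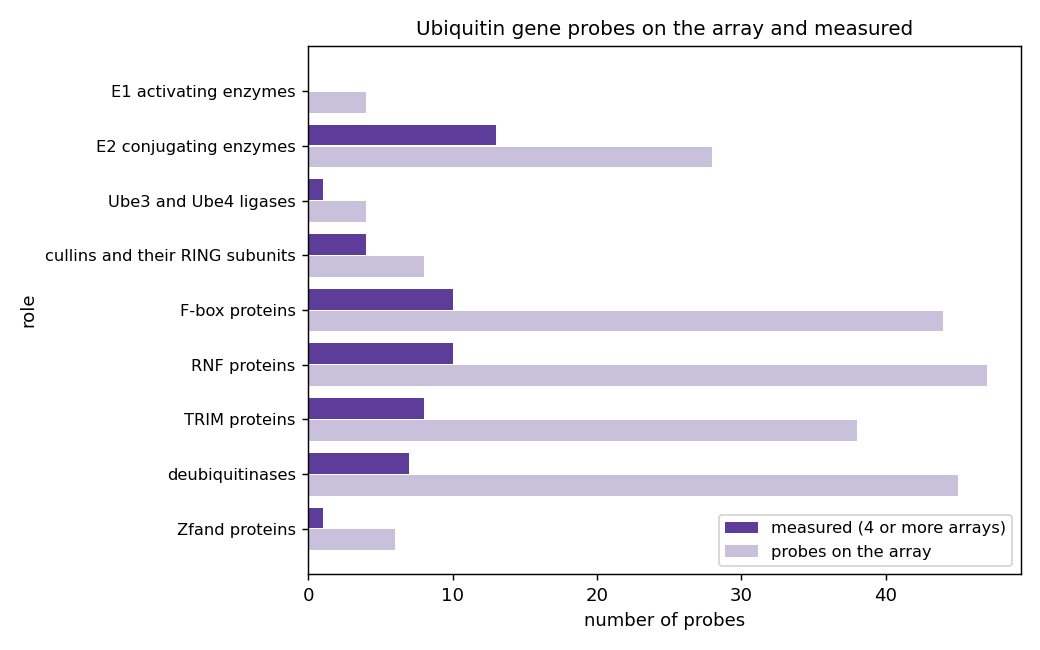
Bars give the number of probes (x axis) for each role in the ubiquitin system (y axis), as probes measured on 4 or more arrays above all probes on the array. None of 4 activating enzyme probes, 13 of 28 conjugating enzyme probes and 10 of 44 F-box probes were measured.

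The first comparison asked what the small PVP-coated particles did to these genes. In PVP10, 13 members rose and 11 fell against control (limma, Benjamini-Hochberg adjusted p under 0.05 over all 2774 probes). The ubiquitin-binding Zfand5 rose 3.04-fold, and the ligase Ube3a, the conjugating enzyme Ube2g1 and the cullin RING subunit Rbx1 rose 1.65- to 1.98-fold. The conjugating enzyme Ube2e3, the TRIM protein Trim28 and the F-box protein Fbxl6 fell to between 0.467- and 0.503-fold. The 24 members called are 44.4% of those measured, against 41.7% of all probes, of which 20.2% were higher and 21.5% lower, so the share is near that of the array as a whole. The median log2 fold change was 0 over the members and -0.01 over all probes, and the median absolute value was 0.20 and 0.21. Among the 37 members detected on every array, 12 were higher and 8 lower, where 25.4% of all 1804 such probes were higher and 25.8% lower. Past 1.5-fold lay 4 members that rose and 4 that fell, where 7.28% of all probes rose and 7.97% fell by as much. All 24 had the same direction on each chip. They were called by a fit over both chips, and chip 1 holds 1 control array, so this is no independent check. The arrays of PVP10 and control did not overlap for 17 of the 54 members and for 34.9% of all probes. With median scaling in place of quantile normalization 6 members rose and 9 fell, and the calls of Rnf111, Rnf103, Cul5, Cul1, Rnf31, Rnf25, Ube2q2, Ube2r2 and Rnf10 were lost.

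Zfand5 is a zinc finger protein that binds ubiquitin and the proteasome, and in mouse muscle it promotes protein breakdown. Its normalized log2 intensity was 10.71, 10.38, 10.58, 10.76 and 10.85 on the PVP10 arrays and 10.12, 9.91, 10.40, 10.21 and 10.06 on the PVP75 arrays. It was 9.19, 9.04, 9.23, 9.18 and 8.94 on the citrate10 arrays and 8.76, 8.84, 9.33, 8.85 and 9.27 on the citrate75 arrays, against 9.11, 8.96, 8.93 and 9.22 on the control arrays. Every PVP array of either size lay above every citrate and control array, and 1 PVP75 array reached into the PVP10 range. In PVP10 it was 3.04-fold of control (log2 fold change 1.60, SE 0.123, adjusted p = 1.78e-11 by limma), with a difference of 1.68 on chip 1 and 1.59 on chip 2.

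Among the ligases, Ube3a, a HECT-type ligase best known for its loss in the brain in Angelman syndrome, rose 1.98-fold in PVP10. Its log2 level was 5.89, 5.52, 5.80, 5.89 and 6.40 on the PVP10 arrays and 5.17, 5.12, 5.31, 5.01 and 5.43 on the PVP75 arrays. On the citrate10 arrays it was 4.87, 4.82, 4.87, 4.60 and 5.00, on the citrate75 arrays 4.97, 4.82, 4.72, 4.88 and 5.10, and on the control arrays 4.99, 5.06, 4.69 and 4.93. All PVP10 arrays lay above all others. Its probe was detected on 5 PVP10 and 5 PVP75 arrays but on 1 citrate10, 2 citrate75 and 3 control arrays, so its level outside the PVP groups was close to the detection limit. The log2 fold change in PVP10 was 0.98 (SE 0.128, limma adjusted p = 3.17e-07), with 1.27 on chip 1 and 0.87 on chip 2. Without background correction it was 0.37 (adjusted p = 8.68e-06).

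Of 13 measured conjugating enzymes, 4 rose and 2 fell in PVP10, where 20.2% of all probes rose and 21.5% fell. Ube2g1, which in human cells extends ubiquitin chains on substrates of cullin-RING ligases, had log2 levels of 7.72, 8.05, 7.42, 7.67 and 7.93 in PVP10 and 7.10, 7.08, 7.30, 7.24 and 7.29 in PVP75. Its levels were 6.97, 7.25, 7.24, 7.05 and 7.02 in citrate10 and 6.79, 6.60, 6.97, 7.34 and 6.79 in citrate75, against 6.69, 6.95, 6.85 and 6.84 in control. The PVP10 arrays lay above all other arrays, and the PVP75 and citrate10 arrays lay above the control arrays. The rise in PVP10 was 1.89-fold (log2 fold change 0.92, SE 0.124, limma adjusted p = 5.62e-07), with 1.14 on chip 1 and 0.78 on chip 2.

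Ube2e3, a conjugating enzyme of the small Ube2e family, moved the other way. Its log2 level was 9.14, 9.19, 8.96, 9.37 and 8.98 in PVP10 and 10.00, 10.04, 9.81, 10.13 and 9.85 in PVP75. It was 10.47, 10.23, 10.26, 10.07 and 10.00 in citrate10 and 10.16, 10.46, 10.29, 10.31 and 10.24 in citrate75, against 10.04, 10.21, 10.36 and 10.30 in control. No PVP10 array reached the lowest array of any other group. It fell by 1.10 on the log2 scale (0.467-fold, SE 0.105, limma adjusted p = 1.24e-09), with -1.27 on chip 1 and -1.03 on chip 2, the largest fall among the members.

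Ube2q1, an enzyme of the Ube2q family with an extended N-terminal region, had log2 levels of 8.60, 8.61, 8.63, 8.41 and 8.76 in PVP10, against 8.89, 9.19, 9.12 and 9.17 in control. The groups did not overlap, and it fell by 0.50 (SE 0.0894, limma adjusted p = 3.96e-05). Its relative Ube2q2 rose by 0.32 (limma adjusted p = 0.0146), so these relatives moved in opposite directions. Ube2j2, which sits in the endoplasmic reticulum membrane and serves the removal of misfolded proteins from it, had levels of 9.26, 9.30, 9.24, 9.13 and 9.18 in PVP10, against 8.97, 8.85, 8.85 and 8.85 in control. Its rise was small but without overlap (0.34, SE 0.0906, limma adjusted p = 0.00283). Ube2r2, a partner of Cul1 ligases, rose by 0.29 (limma adjusted p = 0.0424) with overlapping arrays. The 7 others were not called. These were the broad-range enzymes Ube2d1 (-0.19) and Ube2d3 (0.03), the enzyme Ube2m (-0.18), which loads cullins with the ubiquitin-like NEDD8, and Ube2l3 (-0.13), Ube2s (0.16), Ube2v1 (0.13) and Ube2z (0.03).

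Among the 4 cullin-RING core subunits 2 rose and 1 fell, beside 20.2% of all probes higher and 21.5% lower. Rbx1, the RING subunit that recruits the charged conjugating enzyme to several cullins, had log2 levels of 8.78, 8.60, 8.52, 8.57 and 8.86 in PVP10 and 8.04, 8.23, 8.11, 8.01 and 7.74 in PVP75. It was at 7.81, 7.78, 8.18, 7.93 and 7.97 in citrate10 and 6.92, 7.49, 7.83, 7.67 and 7.21 in citrate75, against 8.01, 7.84, 8.02 and 7.95 in control. All PVP10 arrays stood above all others, and the citrate75 arrays all stood below the control arrays. In PVP10 it rose 1.65-fold (log2 fold change 0.73, SE 0.133, limma adjusted p = 5.27e-05), with 0.71 on chip 1 and 0.69 on chip 2.

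Cul5, the scaffold of ligases that use SOCS-box receptors, had levels of 6.17, 5.70, 5.62, 5.95 and 6.22 in PVP10, against 5.67, 5.36, 5.16 and 5.53 in control. The groups overlapped at 1 array, and the rise was 0.51 (SE 0.152, limma adjusted p = 0.00796). That call was lost without control replicate 3, when the adjusted p was 0.0669. Cul1, the scaffold of F-box ligases, fell by 0.27 (limma adjusted p = 0.0192), with overlapping arrays. Cul3, the scaffold of BTB-domain receptors, was at -0.25 and was not called (limma adjusted p = 0.14).

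Of 10 F-box proteins, the substrate receptors of Cul1 ligases, 2 fell and none rose by the test. Among all probes 21.5% fell and 20.2% rose, so a count over 10 genes says little about the family. Fbxl6, a receptor with leucine-rich repeats, had log2 levels of 5.07, 5.12, 5.06, 5.37 and 5.03 in PVP10 and 5.76, 6.22, 6.23, 5.92 and 5.88 in PVP75. It was at 6.33, 6.43, 6.20, 6.10 and 5.96 in citrate10 and 6.23, 6.38, 6.48, 6.28 and 6.11 in citrate75, against 6.29, 6.16, 6.21 and 5.89 in control. The PVP10 arrays formed a separate low group close to the detection limit, where the lowest detected probe of an array lay between 4.85 and 5.09. The fall was 0.99 (0.503-fold, SE 0.111, limma adjusted p = 2.45e-08), with -1.13 on chip 1 and -0.95 on chip 2. Without background correction the log2 fold change was -0.40 (adjusted p = 1.6e-06).

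Fbxw5, a receptor with WD repeats, had levels of 5.34, 5.55, 5.26, 5.35 and 5.23 in PVP10, against 5.71, 6.10, 6.01 and 6.06 in control, with no overlap. It fell by 0.64 (SE 0.141, limma adjusted p = 0.00048). Its PVP10 levels were also low, and without background correction the log2 fold change was -0.27 (adjusted p = 0.00443). The other 8 F-box proteins, Fbxl17, Fbxl20, Fbxo11, Fbxo31, Fbxo33, Fbxo6, Fbxw2 and Fbxw8, ranged from -0.20 (Fbxo33, adjusted p = 0.0673) to 0.20 (Fbxl20, adjusted p = 0.133) in the limma fit.

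Of 10 RNF proteins, single-chain RING ligases and their relatives, 4 rose and 3 fell, where 20.2% of all probes rose and 21.5% fell. Rnf111, also called Arkadia, a ligase that recognises SUMO-tagged proteins and enhances TGF-beta signalling, had levels of 6.88, 7.09, 6.91, 7.25 and 7.17 in PVP10, against 6.37, 6.68, 6.37 and 6.73 in control. The groups did not overlap, and the rise was 0.52 (SE 0.118, limma adjusted p = 0.000649), with 0.77 on chip 1 and 0.42 on chip 2. Rnf103, a ligase of the endoplasmic reticulum, rose by 0.32 (limma adjusted p = 0.0093). Rnf25 rose by 0.33 (adjusted p = 0.0312) and Rnf10, which in human cells modifies ribosomal proteins, by 0.26 (adjusted p = 0.042), both with arrays that overlapped those of control.

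Rnf26, an endoplasmic reticulum ligase that in human cells holds endosomes near the nucleus, had log2 levels of 6.14, 6.68, 6.22, 5.99 and 6.07 in PVP10 and 6.27, 6.30, 6.30, 6.50 and 6.54 in PVP75. It was at 6.54, 6.75, 6.59, 6.77 and 6.33 in citrate10 and 7.13, 6.88, 6.56, 6.48 and 6.82 in citrate75, against 6.69, 6.63, 6.92 and 6.63 in control. All PVP75 arrays and all but 1 PVP10 array lay below the control arrays. In PVP10 it fell by 0.54 (SE 0.111, limma adjusted p = 0.000251). Rnf215 had levels of 7.02, 6.71, 7.04, 6.75 and 6.95 in PVP10, against 7.47, 7.40, 7.40 and 7.50 in control. It fell by 0.53 without overlap (SE 0.104, limma adjusted p = 0.000135). Rnf31, the catalytic subunit of the complex that builds linear ubiquitin chains, fell by 0.30 (limma adjusted p = 0.0311), with detection on 3 PVP10 arrays and 4 control arrays. Rnf4 (0.09), Rnf185 (0.10) and Rnf216 (-0.14) were not called.

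Of 8 TRIM proteins, a family in which most members combine a RING with B-boxes and a coiled coil, 3 fell and none rose by the test. Among all probes 21.5% fell and 20.2% rose, and a count over 8 genes says little about the family. Trim28, the co-repressor that KRAB zinc finger proteins recruit to silence transposable elements, had log2 levels of 7.75, 7.56, 7.37, 7.49 and 7.43 in PVP10 and 8.26, 8.20, 8.53, 8.27 and 8.20 in PVP75. It was at 8.71, 8.60, 8.21, 8.39 and 8.49 in citrate10 and 8.93, 8.92, 8.60, 8.61 and 8.52 in citrate75, against 8.32, 8.73, 8.63 and 8.60 in control. The PVP10 arrays lay below every other array. The fall was 1.05 (0.484-fold, SE 0.114, limma adjusted p = 1.52e-08), with -1.13 on chip 1 and -1.01 on chip 2.

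Trim3, a TRIM protein of the brain, had levels of 4.88, 4.75, 4.72, 4.79 and 4.66 in PVP10, against 5.16, 5.53, 5.17 and 5.04 in control. The groups did not overlap, yet the probe was detected on only 1 PVP10 array and on all 4 control arrays. It was lower by 0.46 in the fit (log2 fold change -0.46, SE 0.126, limma adjusted p = 0.00391). Trim46, which organises microtubules at the start of the axon, fell by 0.45 (limma adjusted p = 0.00651) and was detected on 1 PVP10 and 2 control arrays. The cytosolic antibody receptor Trim21 (0.05), Trim2 (-0.08), Trim14 (-0.05), Trim25 (-0.13) and Trim45 (0.04) were not called.

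Of 7 deubiquitinases 1 rose, beside 20.2% of all probes higher and 21.5% lower. Usp14, which sits on the proteasome and trims ubiquitin chains there, had log2 levels of 11.46, 11.35, 11.23, 11.22 and 11.54 in PVP10, against 10.89, 11.07, 10.82 and 10.90 in control. The groups did not overlap, and the rise was 0.44 (SE 0.107, limma adjusted p = 0.00118), with 0.63 on chip 1 and 0.35 on chip 2. The 6 others lay between -0.22 (Usp49) and 0.17 (Usp9x), with Usp1 at 0, Otud6b at 0.01, Usp19 at -0.05 and Usp47 at 0.03.

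Several of the smaller calls in PVP10 rested on single arrays. Ube2r2 was lost without any of 7 of the 9 arrays of both groups, all but PVP10 replicates 2 and 3, with an adjusted p of up to 0.125. Rnf10 was lost without PVP10 replicates 1, 2, 3 or 5 or control replicate 1 (up to 0.242), and Rnf25 without PVP10 replicates 2 or 3 or control replicates 3 or 4 (up to 0.161). Rnf31 was lost without PVP10 replicates 2 or 4 or control replicates 3 or 4 (up to 0.127), Cul1 without PVP10 replicates 1 or 4 (up to 0.0529), and Ube2q2 without PVP10 replicate 5 or control replicate 3 (up to 0.0591). Without the detection filter the calls of Cul5, Ube2r2, Rnf10, Rnf25, Rnf31, Trim46 and Ube2q2 were lost, and that of Rnf31 also without background correction. The calls of Zfand5, Ube2g1, Ube2e3, Trim28 and Fbxl6 held without each of these 9 arrays in turn and under every other setting tried. That of Ube3a held under all of these but the filter for detection on all 24 arrays, which its probe did not pass.

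**Figure D2:**
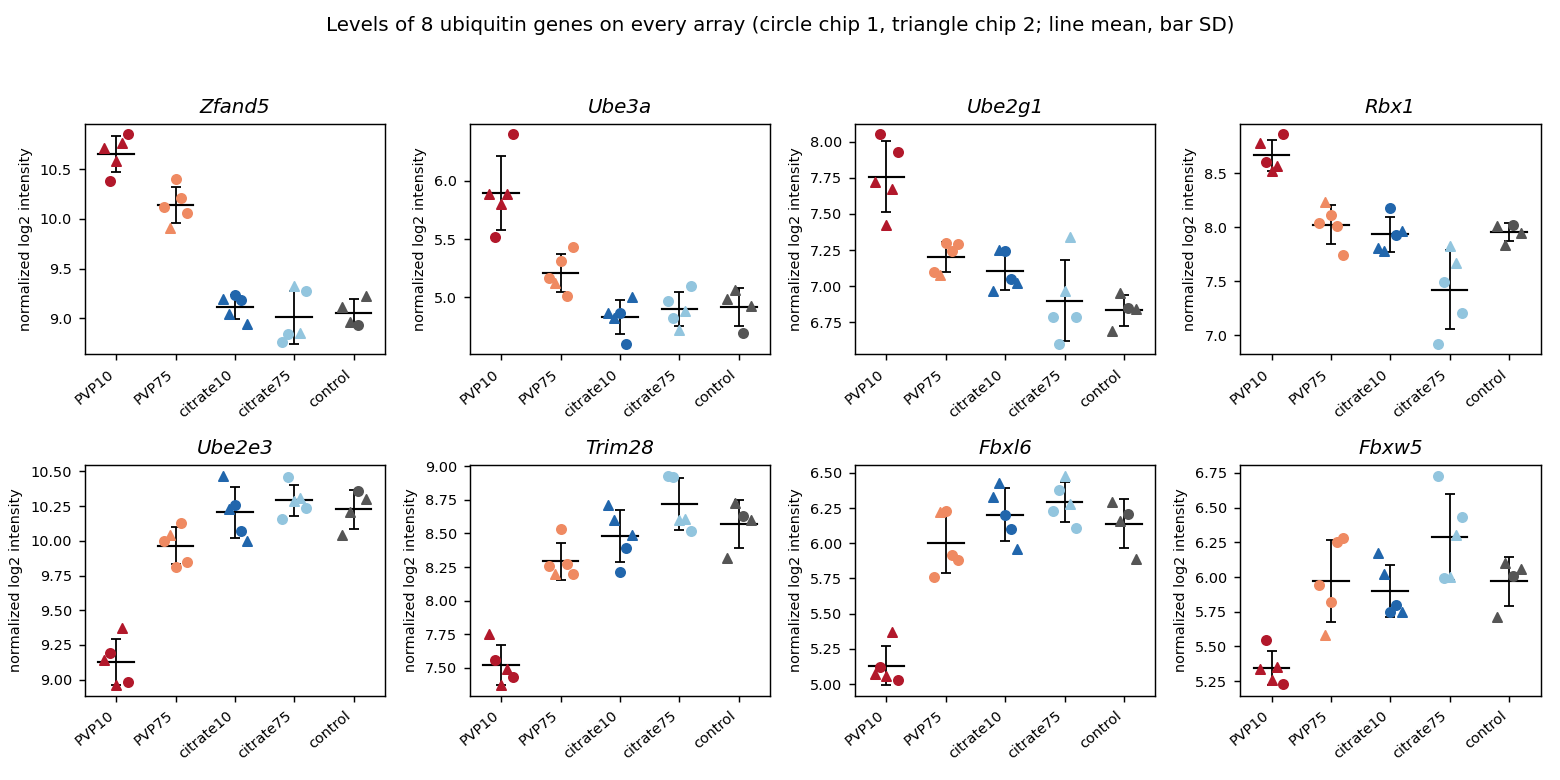
Normalized log2 intensity (y axis) of 8 members on each array, grouped by particle (x axis), with circles for chip 1, triangles for chip 2, a line for the mean and a bar for the SD. Zfand5 was raised in PVP10 and PVP75, while Ube2e3, Trim28 and Fbxl6 had PVP10 arrays below those of every other group.

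The second comparison concerned the large PVP particles. Of the 54 members 1 rose and 1 fell (3.7%), against 5.48% of all probes, of which 2.67% were higher and 2.81% lower. Zfand5 rose 2.12-fold (log2 fold change 1.08, SE 0.13, limma adjusted p = 2.26e-06), with 1.27 on chip 1 and 0.81 on chip 2. Rnf26 fell by 0.47 (SE 0.118, limma adjusted p = 0.0155) with no overlap of the arrays, a call lost without control replicate 3 (adjusted p = 0.0757). It was also lost with median scaling (adjusted p = 0.0604), without the detection filter (0.0716), without the chip term (0.114) and on chip 2 (0.319) or chip 1 (0.71) alone. The arrays of 5 of the 54 members did not overlap those of control, where 9.44% of all probes did not. Ube2g1 was among these, at 0.35 (95% interval 0.08 to 0.62), and was not called (limma adjusted p = 0.126). Ube3a was at 0.29 (limma adjusted p = 0.232), Ube2e3 at -0.25 and Trim28 at -0.27 (adjusted p = 0.209 each). PVP10 and PVP75 were set against the same 4 control arrays.

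**Figure D3:**
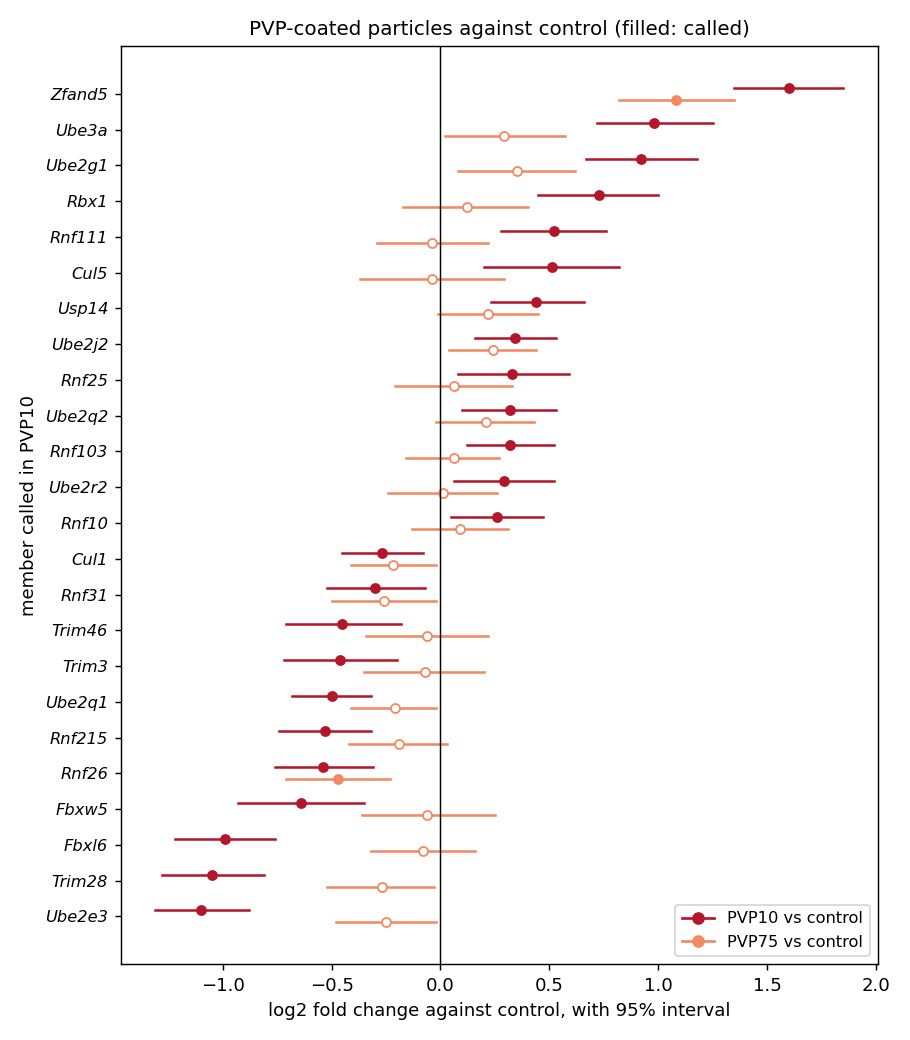
Log2 fold change against control with its 95% interval (x axis) for the 24 members called in PVP10 (y axis), in PVP10 and PVP75. Filled points passed the test, which in PVP75 holds for Zfand5 (1.08) and Rnf26 (-0.47).

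With citrate-coated particles no member was called by limma. In citrate10, 1 of 2774 probes passed (0.036%), 1 member had an unadjusted p under 0.05 (116 probes in all), and the members ranged from -0.20 to 0.27. The arrays of 1 member, Ube2g1, did not overlap those of control, where 1.77% of all probes did not. The smallest p-values belonged to Ube2g1 (0.27), Trim14 (-0.20) and Rnf26 (-0.16), each with an adjusted p = 0.996. In citrate75, 0 of 2774 probes passed, 1 member had an unadjusted p under 0.05 (241 probes in all), and the members ranged from -0.50 to 0.30. The arrays of 1 member, Rbx1, did not overlap those of control, where 3.75% of all probes did not. The smallest p-values belonged to Rbx1 (-0.50, adjusted p = 0.406), Rnf31 (-0.23, adjusted p = 0.597) and Fbxw5 (0.28, adjusted p = 0.605). With weights for array quality, 0 members passed in citrate10 and 1 in citrate75, Rbx1 (-0.51, adjusted p = 0.0373). For Zfand5 the 95% interval of the log2 fold change was -0.19 to 0.31 in citrate10 and -0.30 to 0.21 in citrate75, and for Ube2e3 it was -0.23 to 0.20 and -0.15 to 0.29.

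**Figure D4:**
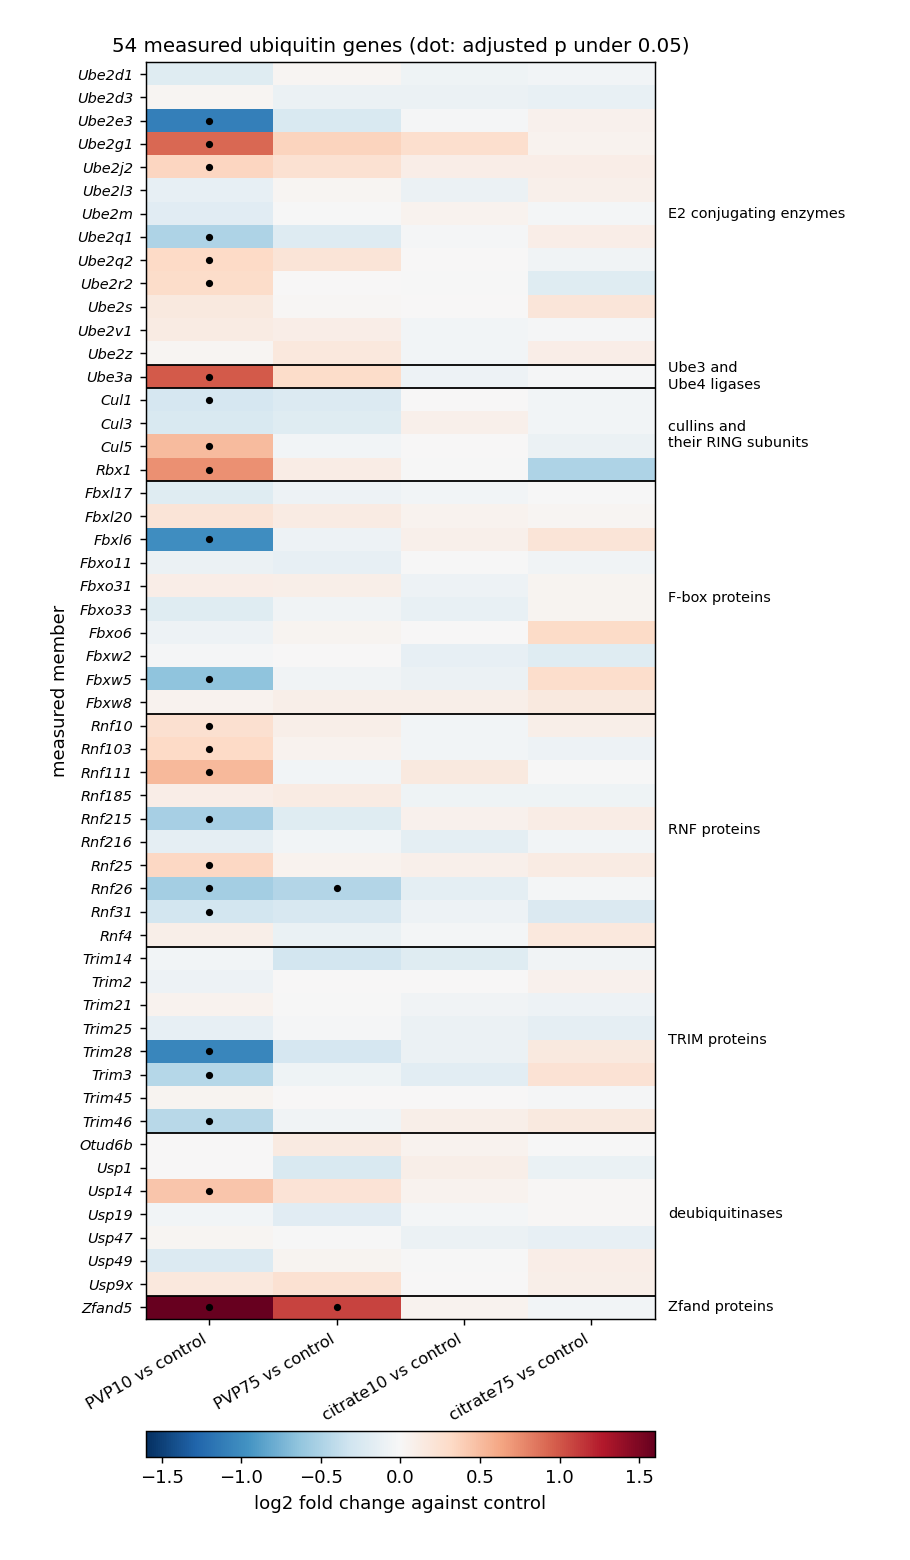
Log2 fold change against control (colour, blue lower, red higher) of the 54 measured members (y axis, by role) for each particle (x axis), with a dot where the adjusted p was under 0.05. There are 24 dots in PVP10, 2 in PVP75 and none in either citrate column.

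The direct comparison of both PVP sizes asked which members differed between them. Both sizes were given at 1 ppm, so size cannot be told apart here from the number and total surface of the particles. PVP10 had 7 members higher and 8 lower than PVP75 (27.8%), against 28% of all probes, of which 13% were higher and 15% lower. Ube3a (0.69), Rbx1 (0.61), Ube2g1 (0.57), Rnf111 (0.56), Cul5 (0.55), Zfand5 (0.52) and Rnf103 (0.26) were higher. Fbxl6 (-0.91, SE 0.108), Ube2e3 (-0.85, SE 0.102), Trim28 (-0.77), Fbxw5 (-0.58), Trim3 (-0.39), Trim46 (-0.39), Rnf215 (-0.34) and Ube2q1 (-0.29) were lower. Without single arrays the calls of Rnf103 (7 of 10 arrays), Trim46 (PVP10 replicates 2 and 5 and PVP75 replicate 1), Trim3 (PVP10 replicate 5 and PVP75 replicate 2), Rnf215 and Ube2q1 (each PVP75 replicate 2) were lost, with adjusted p-values of up to 0.157, 0.0623, 0.0587, 0.106 and 0.0681. The same 5 calls were lost with median scaling, and those of Cul5, Rnf215, Rnf103, Trim3 and Trim46 without the detection filter. Rnf26 did not differ beyond the test (-0.06, 95% interval -0.29 to 0.16, limma adjusted p = 0.722). Between citrate10 and citrate75 no member was called, as were 0.144% of all probes, with 4 members and 377 probes at an unadjusted p under 0.05. The smallest p-values were those of Rbx1 (0.50, limma adjusted p = 0.0872), Trim3 (-0.40, adjusted p = 0.159) and Fbxw5 (-0.37, adjusted p = 0.227). Array weights gave 3 calls there, these same genes, at 0.49, -0.43 and -0.42, and leaving out citrate75 replicate 3 gave Rbx1 (0.61, adjusted p = 0.0293).

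The size difference was then compared between the coatings, as the PVP10 minus PVP75 difference less the citrate10 minus citrate75 difference. It was called for 4 members (7.41%), against 15.2% of all probes, of which 7.1% were positive and 8.15% negative. Ube3a was positive at 0.75 (SE 0.171, limma adjusted p = 0.00264). Fbxl6 (-0.80, SE 0.148, adjusted p = 0.00046), Ube2e3 (-0.76, SE 0.14, adjusted p = 0.00046) and Trim28 (-0.54, SE 0.152, adjusted p = 0.0158) were negative. With median scaling the calls of Ube3a (adjusted p = 0.0518) and Trim28 (0.141) were lost, and that of Trim28 also without the detection filter (0.0948) and on chip 2 alone (0.0943). All 4 were lost on chip 1 alone, with adjusted p-values of 0.084 to 0.53. Without background correction Fbxl6 was at -0.31 and Ube3a at 0.30, both still called. For Fbxl6 the size difference was -0.91 with PVP and -0.11 with citrate, and for Ube2e3 it was -0.85 and -0.09. Zfand5 was at 0.42 and was not called (95% interval 0.08 to 0.75, limma adjusted p = 0.0886).

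The coatings were compared at equal size. At 10 nm, 12 members were higher and 11 lower with PVP than with citrate (42.6%), against 41.7% of all probes (20.3% higher, 21.4% lower). Of these, Cul3 (-0.32) and Trim3 (-0.29) were each lost without any of 7 of the 10 arrays (limma adjusted p of up to 0.114 and 0.149). Ube2r2 (0.30) was lost without any of 4 (up to 0.101). Cul1, Ube2j2 and Ube2q2 were lost without 1 or 2 arrays. Median scaling ended all of these calls and those of Rnf103 and Rnf111. At 75 nm, 2 were higher and 5 lower (13%), against 14.1% of all probes (6.63% higher, 7.5% lower). Zfand5 was higher with PVP at either size, by 1.54 at 10 nm (SE 0.115, limma adjusted p = 8.93e-12) and 1.13 at 75 nm (SE 0.116, adjusted p = 7.39e-08). Rbx1 was higher by 0.73 at 10 nm and 0.62 at 75 nm, the second beside citrate75 arrays that lay below control. The call of Rbx1 at 75 nm was lost with median scaling (0.44, adjusted p = 0.0761) and on chip 2 alone (0.49, adjusted p = 0.152). Lower at 75 nm were Rnf26 (-0.44), Trim28 (-0.42), Ube2q1 (-0.33), Ube2e3 (-0.32) and Rnf215 (-0.31). The call of Ube2e3 was lost without PVP75 replicates 3 or 5 or citrate75 replicate 2 (adjusted p of up to 0.0845), and that of Rnf215 without PVP75 replicates 3 or 4 or citrate75 replicates 1 or 5 (up to 0.109). Median scaling also ended the calls of Ube2q1, Ube2e3 and Rnf215, and leaving out the detection filter those of Trim28, Ube2e3 and Rnf215. On chip 2 alone, which holds 1 PVP75 array, the 7 calls at 75 nm were all lost. All 7 members called at 75 nm were called the same way at 10 nm, in comparisons that share no array. They are 2 of 12 higher (16.7%) and 5 of 11 lower (45.5%) at 10 nm, where 149 of 564 (26.4%) and 175 of 593 (29.5%) of all probes were shared, and 100% of each list at 75 nm, where 81% and 84.1% of all probes were shared.

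**Figure D5:**
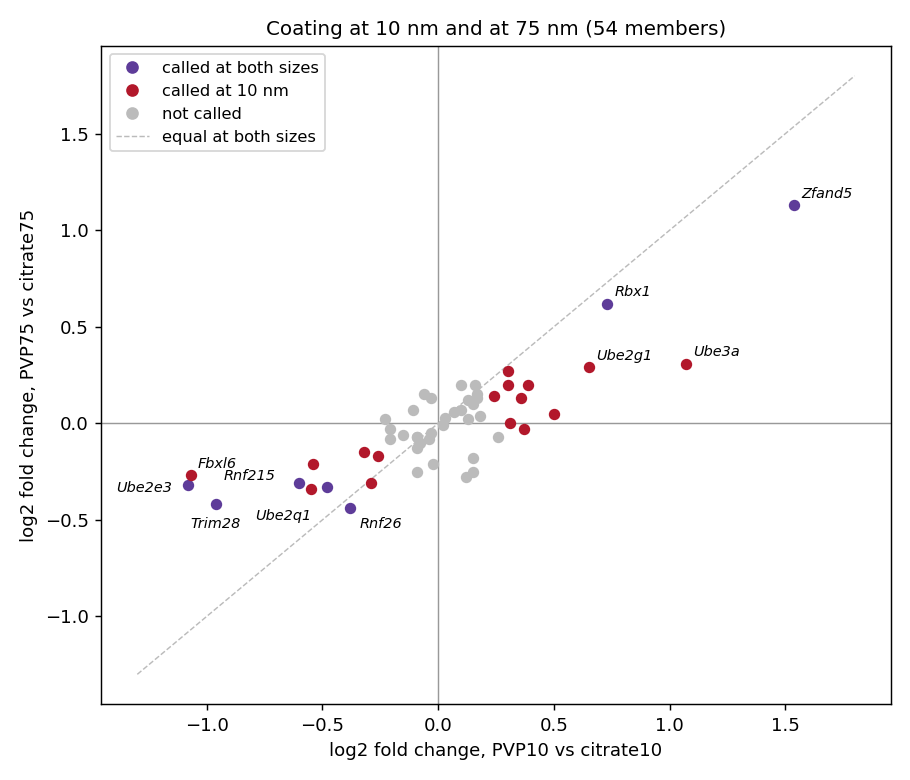
Log2 fold change of PVP10 against citrate10 (x axis) and of PVP75 against citrate75 (y axis) for the 54 measured members, coloured by where they were called, with a dashed line of equal values. Rbx1 (0.73 and 0.62) lies near that line, while Zfand5 (1.54 and 1.13), Ube3a, Ube2e3, Trim28 and Fbxl6 lie further out at 10 nm.

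Genes of the same pathway that the naming rule leaves out were counted in PVP10 against control, beside the 20.2% of all probes that rose and 21.5% that fell. Of 18 probes of other ligases 8 rose and 1 fell, with a median of 0.13. They included Mib1, which acts on Notch ligands (1.31), Cbll1 (0.99), Herc4 (0.90) and Traf6, which signals from receptors of innate immunity (0.73), while Traf2 fell by 0.45. Of 16 further cullin-RING partners 7 rose and 3 fell, with a median of 0.24, among them the Cul4 receptors Crbn (0.95) and Dcaf13 (0.85) and the Cul5 receptors Socs4 (0.79) and Asb3 (0.74). The anaphase-promoting complex had 2 of 4 probes higher, Anapc7 (0.40) and Anapc4 (0.39). Of 6 probes listed as other deubiquitinases and their relatives, 2 rose and 1 fell. The proteasome-bound Uchl5 (0.66) and Eif3h (0.57), a subunit of a translation initiation factor, rose, and the SUMO protease Senp7 fell (-0.27).

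Ubiquitin receptors and the segregase that pulls tagged proteins out of complexes had 9 of 11 probes higher and 1 lower in PVP10. The median was 0.84, and the 11 probes stand for 10 genes, as Sqstm1 has 2. Of all probes in PVP10, 20.2% rose and 21.5% fell. These gene lists were chosen with earlier results of these data known. The segregase cofactors Ufd1 (1.18), Nploc4 (0.96) and Ubxn7 (0.87) rose, as did the segregase Vcp itself (0.42). The autophagy receptor Sqstm1 rose by 3.03 and 2.52 at its 2 probes, and the chaperone partner Bag6 was lower (-0.76). Of 20 proteasome probes 14 rose and none fell, with a median of 0.48. The ubiquitin-like modifier Nedd8, the only modifier measured, was not called (0.15, limma adjusted p = 0.481). In PVP75, 2.67% of all probes rose and 2.81% fell. By list, 1 of 18 other ligase, 2 of 16 cullin-RING partner and 0 of 4 anaphase-promoting complex probes rose there. So did 1 of 6 probes of other deubiquitinases and relatives, 2 of 11 of receptors and 4 of 20 of proteasome subunits. No listed probe was called lower in PVP75, and both citrate groups had 0 calls in every list.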

How the data were processed

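RNA of 24 samples in 5 groups was hybridised to Illumina rat arrays. The authors' deposited table gives, per the file headers, a linear bead intensity for each of 22523 probes on each array and beside it a detection p-value, and its values carry no background subtraction or normalization. Per the submitters' processing notes GenomeStudio 2011.1 was used, with other steps not given in the sources used here. Another deposited table holds intensities that the authors had quantile normalized, judging by its equal quantiles (column medians 88.85 to 88.88). It served as an alternative, and its centring beyond that is unknown.

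Intensities were background-corrected by normexp (limma 3.58.1 in R 4.3.3, offset 16), which infers the negative controls from detection p-values, then quantile normalized and taken to log2. Probes with a detection p under 0.01 on at least 4 arrays were kept, 2774 in all. A linear model with 5 groups and the chip as a fixed term was fitted over all kept probes (lmFit, eBayes), and a probe was called at a Benjamini-Hochberg adjusted p under 0.05. Intervals are 95%. Precision is limited by how many arrays each group holds. The procedure was also run on simulated data. Those values were drawn independently for each probe and without a chip effect, so that run does not cover such features of the arrays. All 224 members matched the RefSeq gene table by gene ID. The platform annotation gave 13793 probes 1 gene symbol, 0 several and 8730 none.

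Array-by-array values are given for the 8 highest and 8 lowest members by log2 fold change among those called in PVP10, and for those called in PVP75 or in the interaction. Where no member was called, the 3 with the smallest p are named, and from other pathway lists up to 4 called genes, while Traf2, Ubxn7, Vcp, Bag6 and Nedd8 outside that rule were named after their values were seen. The members, gene lists and tests were chosen with earlier results of these data known. Alternatives were the background correction, the offset, the authors' table, median scaling, detection filters, the chip term, each chip alone, array weights, a replicate block and leaving out each array.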

Additional observations from a re-analysis of the deposited data

Results flagged for a closer look

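Of 270 sets of a member's values in a group, 17 (6.3%) held 1 array far from the others by Dixon's criterion, where chance gives about 1 in 20. In PVP10 these were Cul3 at 6.89 on replicate 5, Ube2q2 at 9.15 on replicate 5, Fbxl20 at 5.41 on replicate 4 and Fbxl6 at 5.37 on replicate 4, which was still below every array of the other groups. In PVP75 they were Usp14 at 11.48, Trim28 at 8.53 and Rnf103 at 7.25, all on replicate 3, and Fbxo11 at 9.88 on replicate 2. In citrate10 they were Usp1 at 5.57 on replicate 1, Rnf216 at 6.20 on replicate 2 and Ube2l3 at 4.56 on replicate 3, where its probe was not detected. In citrate75 they were Ube2m at 7.91 and Ube2q2 at 8.12 on replicate 1 and Trim45 at 8.32 on replicate 2. In control they were Ube2j2 at 8.97 on replicate 1, and Rnf4 at 5.40 and Fbxo31 at 5.16 on replicate 2.

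By the interaction in the limma fit, the effect of particle size differed between the PVP and citrate coatings for 4 members. These were Fbxl6 (-0.80), Ube2e3 (-0.76), Ube3a (0.75) and Trim28 (-0.54). They are 7.41% of the measured members, a lower share than the 15.2% of all probes. The calls of Ube3a and Trim28 were lost with median scaling.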

How the results depend on the processing

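With median scaling in place of quantile normalization, 15 members were called in PVP10 against control (6 higher and 9 lower, against 13 and 11), 1 in PVP75 against control, 15 in PVP10 against citrate10, 4 in PVP75 against citrate75 (1 higher, 3 lower) and 2 in the interaction (both negative). Over all probes it changed the share of calls that were higher to 31.8% in PVP75 against control (48.7% with quantile normalization), 20.7% in PVP75 against citrate75 (46.9%) and 63.8% in the interaction (46.6%). Without the detection filter, 1 member was called in PVP75 against control and 4 in PVP75 against citrate75. Without the chip term, 1 was called in PVP75 against control. Array weights gave 1 call in citrate75 against control and 3 in citrate10 against citrate75. On chip 2 alone, where the single PVP75 array is assumed to vary like the other groups, 1 was called in PVP75 against control, 7 in PVP10 against PVP75 and 0 in PVP75 against citrate75, where Rnf215 turned to 0.02 (limma adjusted p = 0.966, against -0.31 with both chips in the fit). Chip 1 alone, chosen after seeing the data and with 1 control array, gave 8 in PVP10 and 1 in PVP75 against control, 9 in PVP10 against PVP75, 12 in PVP10 against citrate10, 4 in PVP75 against citrate75 and 0 in the interaction. Fewer arrays enter each chip alone, and for the other settings the cause was not tested. Leaving out 1 array at a time gave 19 to 23 calls in PVP10 against control (lowest without control replicate 3), 1 to 2 in PVP75 (1 without control replicate 3), 0 in citrate10 and citrate75 against control, 11 to 17 in PVP10 against PVP75, 0 to 1 in citrate10 against citrate75 (1 without citrate75 replicate 3), 19 to 24 in PVP10 against citrate10, 6 to 9 in PVP75 against citrate75 and 4 to 6 in the interaction. Of 46 same-numbered pairs, 1 had a correlation of deviations from the group means over 0.1 (range -0.2 to 0.308), and 1 of 24 arrays matched its own number best. The chip was not taken out of these deviations, and same-numbered arrays often lay on different chips. So these correlations cannot tell if the replicate numbers pair the samples. With the replicate block, calls numbered 23 in PVP10, 2 in PVP75 and 0 in citrate10 and citrate75 against control, 15 in PVP10 against PVP75, 0 in citrate10 against citrate75, 24 in PVP10 against citrate10, 8 in PVP75 against citrate75 and 5 in the interaction. Over the named genes, 1553 values under the alternatives kept their direction and their side of the threshold, 199 kept only the direction, 5 newly passed and 1 turned. Near the detection limit, signal over background limits the fold change. That holds for Ube3a outside the PVP groups, Fbxl6 and Fbxw5 in PVP10, Trim3, Trim46, Rnf31 and the marker Gad2. Other members of low intensity also had smaller log2 fold changes in PVP10 against control without background correction. Among them were Cul5 (0.21), Rnf111 (0.31) and Rnf26 (-0.29).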
